A study of Homo sapiens with 30 samples.

Results

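The genes described here are the 31 that encode the pyruvate dehydrogenase (PDH) complex, the enzymes of the tricarboxylic acid (TCA) cycle with respiratory complex II, the malic enzymes, pyruvate carboxylase and the citrate and dicarboxylate carriers of mitochondria. They were chosen by name for their place in the pathway, and all 31 were found among the 60675 genes listed in the overexpression series and the 58051 listed in the knockout series. The study sequenced RNA of 3 human AML (acute myeloid leukemia) cell lines, as 30 libraries in 10 groups of 3. In the overexpression series (12 libraries), a lentiviral construct with an EF1a promoter, GFP and the MIR1-2 hairpin (miR-1 OE) or the same type of construct without the hairpin (EV) had been placed in Molm-14 and MV4-11. In the knockout series (18 libraries), lentiCRISPRv2 with GFP and 1 guide against MPC1 (MPC1 KO) had been placed in the same lines and in THP-1. The study describes the controls of this series as a nontargeting empty vector. EV thus stands for the control of each series, and not for the same construct in both. The sources used here do not say whether the KO lines were clones or pools, or whether the replicates came from separate cultures, so the p-values measure the spread between libraries, which may be technical.

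The PDH complex turns pyruvate into acetyl-CoA, which citrate synthase joins to oxaloacetate to open the cycle, and the cycle hands electrons to the respiratory chain through NADH and complex II. Anaplerosis refills the cycle: pyruvate carboxylase makes oxaloacetate from pyruvate, and the malic enzymes convert malate and pyruvate into each other. MPC1 forms, with MPC2, the mitochondrial pyruvate carrier, and so stands directly upstream of the PDH complex and of pyruvate carboxylase.

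Because the OE vector encodes miR-1, the letters of the members' 3′ UTRs bear on the OE comparisons. The mature miRNA that both human miR-1 genes encode is shown with its seed (bases 2 to 8) in capitals, from RefSeq on GRCh38.p14; MIR1-2 places it at chr18:21829015-21829036 on the minus strand and MIR1-1 at chr20:62554351-62554372 on the plus strand.
hsa-miR-1-3p: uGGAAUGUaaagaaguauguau
Of the 31 members, 5 held a match to this seed in the 3′ UTR of their canonical transcript (16.1%), against 21.9% of the 12570 tested genes with a 3′ UTR. The letters searched, on the transcript's strand, were ACATTCCA (8mer), ACATTCC (7mer-m8) and CATTCCA (7mer-A1), each site counted once under its longest match. The 5 are shown because they are the members in which the vector's product would have a seed match, with the match in capitals and 24 bases per window (GRCh38, GENCODE release 44).
IDH3A, 8mer, chr15:78170040-78170063, plus strand: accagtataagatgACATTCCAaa
DLD, 7mer-m8, chr7:107919301-107919324, plus strand: gcttttgtagaagtcACATTCCtg
PDHA1, 7mer-m8, chrX:19361142-19361165, plus strand: cagctcttctctgtcACATTCCta
IDH2, 7mer-A1, chr15:90083818-90083841, minus strand: agccctgggagcccgCATTCCAca
SLC25A1, 7mer-A1, chr22:19175712-19175735, minus strand: ggcctggcttcaccgCATTCCAgg
PDHA1 held a pair of further 7mer-A1 matches upstream of the site shown. A match is a description of the letters and not a shown site of action.

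Levels are given as CPM (the counts of a gene relative to the library's total, with totals adjusted by the TMM method), and a difference was called when its adjusted p (edgeR, quasi-likelihood test, Benjamini-Hochberg over all genes tested) was under 5%. Libraries of the overexpression series held 15543301 to 20939985 counts, and those of the knockout series 5339360 to 9106478. The 31 members together took 0.291 to 0.316% of these counts in the former and 0.306 to 0.382% in the latter. Among members at a mean of 5 CPM or more, the coefficient of variation between the 3 libraries of a group had a median of 4.41% in the overexpression libraries and of 7.56% in those of the knockout. The leukemic myeloid markers PTPRC, CD33, SPI1, FLT3, CEBPA and LYZ were detected in every library, CD14 was at most 0.234 CPM in the overexpression series, and CD3G and HBA2 were at 0 in all 30. These are only a part of the markers listed for a check of the labels. The other markers, among them MPO, CSF1R, ITGAM, CD3D, CD3E and HBB, are not given here, so no cell type is judged by them. A pair of MV4-11 libraries stood apart in interferon-stimulated genes: their mean was 5.34 on the log2 CPM scale in OE replicate 1 and 3.36 in EV replicate 3, against 1.55 to 1.71 in the other 4 MV4-11 libraries of that series.

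Most members differed between the cell lines, as did most of all genes tested. Between MV4-11 EV and Molm-14 EV, 26 of 31 members were called in the overexpression series (13 higher and 13 lower in MV4-11), where 64.8% of all genes tested were called, and 24 in the knockout series (11 higher and 13 lower), where 61.7% of all genes were called. These comparisons rest on separate libraries, and 23 members were called in both, 11 of them higher and 12 lower in MV4-11 each time, with none in opposite directions. The matching share of all genes was not taken, and most genes were called in each series, so this count does not set the members apart. THP-1 EV was compared with both other lines in the knockout series only: 23 members were called against MV4-11 EV (7 higher and 16 lower in THP-1; 67.5% of all genes were called) and 24 against Molm-14 EV (9 higher and 15 lower; 69.6% of all genes). In the order given, the members called were 83.9, 77.4, 74.2 and 77.4% of the 31. The median absolute log2 difference of the 31 members was smaller than that of all genes tested each time. It was 0.392, 0.525, 0.403 and 0.468 for the members, against 0.528, 0.536, 0.606 and 0.657. The libraries of the compared groups did not overlap for 14 members higher and 14 lower, then 10 and 11, 6 and 15, and 9 and 16. Among all genes, 69.8, 63.9, 68.1 and 71.1% did not overlap. For THP-1, the median member difference was -0.27 against MV4-11 and -0.16 against Molm-14 on the log2 scale. The median of all genes was 0.01 and 0.02, and both comparisons share the THP-1 EV libraries.

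**Figure D1:**
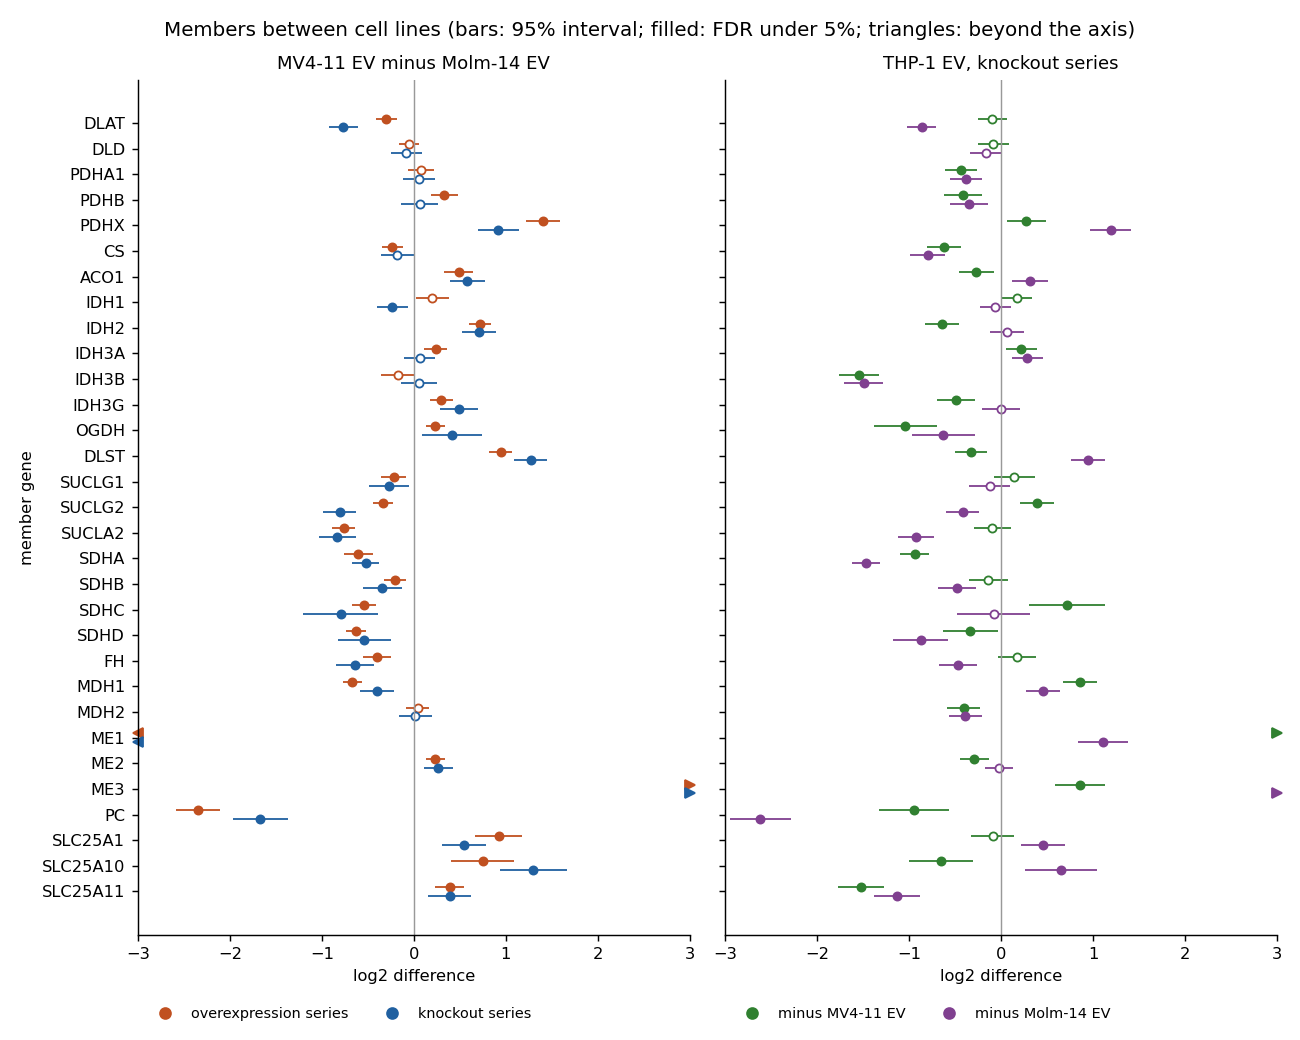
Log2 difference of each of the 31 members between EV groups, with MV4-11 minus Molm-14 in both series on the left and THP-1 minus each other line on the right; bars are 95% intervals, filled points passed the 5% FDR and triangles lie beyond the axis. ME3, ME1 and PC differ most between MV4-11 and Molm-14, and IDH3B, SLC25A11 and SDHA lie below 0 in both THP-1 comparisons.

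ME1, ME3 and PC had the widest differences between MV4-11 and Molm-14 in both series. ME1 is the cytosolic NADP-dependent malic enzyme, ME2 the mitochondrial NAD-dependent form and ME3 the mitochondrial NADP-dependent form. ME1 was near 0 in MV4-11: the EV libraries of the overexpression series held 9, 5 and 0 counts (0.521, 0.241 and 0 CPM), and those of the knockout series 4, 6 and 2 counts. In Molm-14 EV, ME1 was at 16.7, 17.3 and 18.2 CPM in the overexpression series and at 12.1, 17.1 and 16.4 CPM in the knockout series, and in THP-1 EV it was at 30.7, 35.4 and 33.2 CPM. Every Molm-14 and THP-1 library therefore lay above every MV4-11 library. Over the summed counts, ME1 was 68.4 times higher in Molm-14 EV than in MV4-11 EV in the overexpression series (95% interval 40.6 to 126, exact binomial, counting error only) and 29.1 times higher in the knockout series (16.5 to 56.9). THP-1 was above Molm-14 by 1.11 ± 0.13 (log2, SE; adjusted p = 5.93e-08).

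ME3 had the opposite order in MV4-11 and Molm-14. It was at 5.44, 6.13 and 4.83 CPM in MV4-11 EV of the overexpression series, where the 3 Molm-14 EV libraries held 1 count in all and the 3 Molm-14 OE libraries none. In the knockout series it was at 15.8, 14.5 and 13.4 CPM in MV4-11 EV and at 28.1, 25.0 and 26.6 CPM in THP-1 EV, against 2 counts in all in Molm-14 EV and none in Molm-14 KO. Molm-14 was thus the only line of the 3 with ME3 at or under the counting floor in both series. The ratio of MV4-11 EV to Molm-14 EV was 274 (95% counting interval 48.8 to 10900) in the overexpression series. It was 165 (45.3 to 1370) in the knockout series, where that of THP-1 EV to Molm-14 EV was 298 (82.2 to 2470). ME3 was also higher in THP-1 than in MV4-11, by 0.86 ± 0.13 (log2, SE; adjusted p = 2.43e-06). Neither ME1 nor ME3 shares exon sequence with another annotated gene.

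ME2 differed less between the lines. It was higher in MV4-11 EV than in Molm-14 EV by 0.23 ± 0.05 in the overexpression series (168.6 against 143.6 CPM, adjusted p = 3.38e-04) and by 0.27 ± 0.08 in the knockout series (230.9 against 192.2 CPM, adjusted p = 0.00357). Per kilobase of exon, ME2 made up 78.6% ± 1.76 (SD, n = 3) of the summed malic enzyme level in MV4-11 EV of the knockout series, 72.6% ± 4.52 in Molm-14 EV and 41.3% ± 2.16 in THP-1 EV. The rest was almost all ME3 in MV4-11 (20.6% ± 1.74), almost all ME1 in Molm-14 (27.3% ± 4.58) and both in THP-1 (34.5% ± 2.19 ME1 and 24.1% ± 2.02 ME3). In the overexpression series the ME2 share was 87.6% ± 1.37 in MV4-11 EV and 63.4% ± 0.547 in Molm-14 EV, with no overlap between libraries. There ME3 made up 11.7% ± 0.877 in MV4-11 EV and ME1 36.6% ± 0.53 in Molm-14 EV. The shares depend on the exon length used for each gene, which is the same in every group, so they are compared between groups of a series only. That length was 15897 bases for ME2, 3338 for ME1 and 3838 for ME3. By CPM alone the ME2 shares would be larger, so which form makes up most of a group is not settled by them.

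PC, which encodes pyruvate carboxylase, was highest in Molm-14. Its EV libraries were at 46.6, 42.7 and 45.5 CPM in Molm-14 and at 8.69, 7.04 and 10.9 CPM in MV4-11 in the overexpression series, and at 31.1, 31.5 and 30.99 CPM in Molm-14 and 12.1, 9.02 and 8.02 CPM in MV4-11 in the knockout series. THP-1 EV had the lowest values, 5.59, 3.74 and 5.98 CPM, and none of these groups overlapped. The MV4-11 minus Molm-14 difference was -2.35 ± 0.11 (log2, SE; adjusted p = 4.55e-13) and -1.67 ± 0.14 (adjusted p = 9.63e-11), and THP-1 was below MV4-11 by a difference of -0.95 ± 0.19 (adjusted p = 6.17e-05). PC overlaps exons of LRFN4 on the other strand by 621 bases, and the sources do not say if reads were counted by strand.

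**Figure D2:**
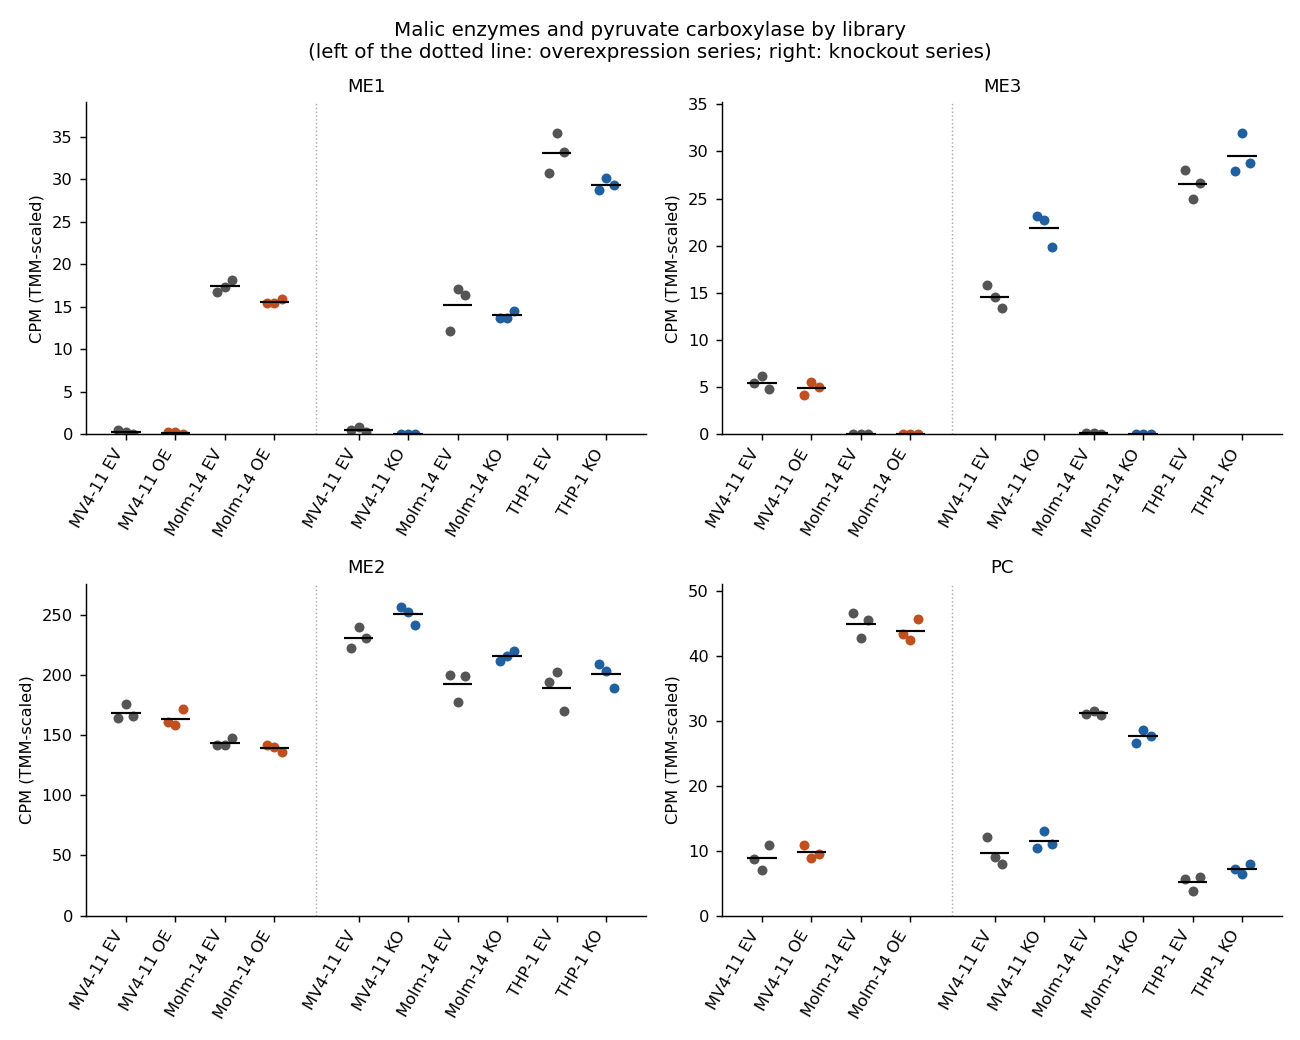
CPM of ME1, ME3, ME2 and PC in each of the 30 libraries (points) with the group mean (line), the overexpression series left and the knockout series right of the dotted line. ME1 sits near 0 in every MV4-11 group, ME3 near 0 in every Molm-14 group, ME2 is high in all, and PC is highest in Molm-14.

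In the PDH complex the subunits did not move together between lines. PDHX, the protein that binds the E3 subunit to the complex, was at 37.2, 39.0 and 43.3 CPM in MV4-11 EV and 15.2, 15.96 and 13.98 CPM in Molm-14 EV of the overexpression series. In the knockout series it was at 59.4, 52.9 and 52.0 CPM in MV4-11 EV, 28.3, 27.1 and 31.9 CPM in Molm-14 EV and 73.4, 66.4 and 59.1 CPM in THP-1 EV. Molm-14 therefore stood below both other lines in every library. The MV4-11 minus Molm-14 difference was 1.40 ± 0.09 (log2, SE; adjusted p = 2.15e-11) and 0.91 ± 0.11 (adjusted p = 3.60e-08). DLAT, the E2 acetyltransferase, went the other way, at a mean of 137.0 CPM in MV4-11 EV against 233.3 CPM in Molm-14 EV of the knockout series (-0.77 ± 0.08, adjusted p = 1.47e-09) and 118.8 against 146.1 CPM in the overexpression series (-0.30 ± 0.05, adjusted p = 5.69e-05). The E1 subunits PDHA1 and PDHB were lower in THP-1 than in MV4-11 by differences of -0.43 ± 0.09 and -0.41 ± 0.10 (adjusted p = 8.14e-05 and 6.90e-04). DLAT overlaps exons of PIH1D2 by 1004 bases and PDHA1 those of MAP3K15 by 956 bases, both on the other strand. DLD, the E3 subunit that the PDH and 2-oxoglutarate complexes share, was not called in any of the 4 line comparisons (log2 differences of -0.16 to -0.06).

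From citrate to 2-oxoglutarate, IDH2 and IDH3B were among the members that differed between the lines. IDH2, the mitochondrial NADP-dependent isocitrate dehydrogenase, was the highest member per kilobase in all 3 EV groups of the knockout series. It was at 481, 395 and 439 CPM in MV4-11 EV, 291, 245 and 269 CPM in Molm-14 EV and 320, 264 and 259 CPM in THP-1 EV. MV4-11 stood above both other lines, by 0.71 ± 0.09 against Molm-14 (log2, SE; adjusted p = 9.75e-08), and by the same 0.71 ± 0.06 in the overexpression series (adjusted p = 1.07e-09). The share of the cytosolic IDH1 in the per-kilobase sum of IDH1 and IDH2 was 19.0% ± 0.292 in MV4-11 EV, 31.1% ± 0.641 in Molm-14 EV and 29.3% ± 2.18 in THP-1 EV.

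IDH3B, a regulatory subunit of the NAD-dependent isocitrate dehydrogenase, had the widest gap of THP-1 among the cycle enzymes. It was at 41.5, 39.6 and 34.3 CPM in THP-1 EV against 130.5, 101.4 and 106.2 CPM in MV4-11 EV and 112.3, 102.1 and 111.7 CPM in Molm-14 EV. The groups did not overlap, and the differences were -1.55 ± 0.10 (adjusted p = 3.98e-13) and -1.49 ± 0.10 (adjusted p = 7.33e-13). The catalytic subunit IDH3A was instead higher in THP-1, by 0.22 ± 0.08 and 0.28 ± 0.08 (adjusted p = 0.0201 and 0.00338), and IDH3G was lower than in MV4-11 (-0.49 ± 0.10, adjusted p = 1.19e-04) with a difference of 0.00 ± 0.10 from Molm-14. IDH3A overlaps exons of ACSBG1 and CIB2 on the other strand by up to 2608 bases. Citrate synthase (CS) was at 79.0, 77.0 and 91.3 CPM in THP-1 EV, below every MV4-11 EV (112.2 to 140.6 CPM) and Molm-14 EV (137.2 to 149.0 CPM) library (-0.62 ± 0.09 and -0.80 ± 0.09, adjusted p = 1.19e-06 and 1.35e-08). ACO1, the cytosolic aconitase, was higher in MV4-11 than in Molm-14 in both series (0.48 ± 0.08 and 0.58 ± 0.09, adjusted p = 1.13e-05 and 5.37e-06).

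In the step from 2-oxoglutarate to succinate, DLST and the succinyl-CoA synthetase subunits ran in opposite directions. DLST, the E2 succinyltransferase of the 2-oxoglutarate dehydrogenase complex, was at 95.8, 86.6 and 90.1 CPM in MV4-11 EV against 48.9, 46.9 and 45.9 CPM in Molm-14 EV of the overexpression series (0.94 ± 0.06, adjusted p = 4.31e-11). In the knockout series it was at 80.3, 82.4 and 86.7 CPM in MV4-11 EV, 32.6, 36.2 and 34.3 CPM in Molm-14 EV and 71.3, 61.2 and 66.3 CPM in THP-1 EV (MV4-11 minus Molm-14, 1.27 ± 0.09, adjusted p = 9.13e-13). The order MV4-11, THP-1, Molm-14 held with no overlap between libraries. OGDH, the E1 subunit, was lowest in THP-1, at 45.0, 41.3 and 64.2 CPM against 86.5 to 111.0 CPM in MV4-11 EV (-1.04 ± 0.16, adjusted p = 1.59e-05) and 71.5 to 85.0 CPM in Molm-14 EV (-0.63 ± 0.16, adjusted p = 0.00237). SUCLA2, the ATP-forming subunit, was lower in MV4-11 than in Molm-14, at 48.7, 49.0 and 49.6 CPM against 85.9, 82.8 and 80.8 CPM in the overexpression series and at 66.5, 65.4 and 67.2 CPM against 119.7, 113.7 and 121.1 CPM in the knockout series. Its differences were -0.76 ± 0.06 (adjusted p = 8.51e-10) and -0.83 ± 0.10 (adjusted p = 2.31e-08). The GTP-forming subunit SUCLG2 and the shared subunit SUCLG1 were lower in MV4-11 too in both series, by differences of -0.81 to -0.22.

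All 4 subunits of complex II (succinate dehydrogenase) were called lower in MV4-11 than in Molm-14 in both series. SDHA, the flavoprotein, was at 79.2, 74.6 and 62.5 CPM in MV4-11 EV against 104.7, 108.4 and 115.6 CPM in Molm-14 EV of the overexpression series, and at 155.3, 152.4 and 162.5 CPM against 233.7, 228.0 and 214.8 CPM in the knockout series. THP-1 EV was lower still, at 89.4, 75.5 and 80.1 CPM, with differences of -0.94 ± 0.08 from MV4-11 and -1.46 ± 0.08 from Molm-14 (adjusted p = 2.40e-11 and 1.63e-15). SDHA shares up to 1887 exon bases with another annotated gene of the same strand. SDHD, a membrane anchor, was also called lower in THP-1 than in both other lines (-0.33 ± 0.14 and -0.87 ± 0.14, adjusted p = 0.0449 and 1.49e-05), and the iron-sulfur subunit SDHB was called lower than in Molm-14 (-0.48 ± 0.10, adjusted p = 1.82e-04). SDHC, the other membrane anchor, was higher in THP-1 than in MV4-11 (0.72 ± 0.20, adjusted p = 0.00366) and had a difference of -0.08 ± 0.19 from Molm-14 (adjusted p = 0.728).

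Fumarase (FH) was lower in MV4-11 than in Molm-14 by differences of -0.40 ± 0.07 and -0.64 ± 0.10 (adjusted p = 8.43e-05 and 3.47e-06). MDH1, the cytosolic malate dehydrogenase, followed the order THP-1, Molm-14, MV4-11, at 478, 449 and 392 CPM in THP-1 EV, 332, 291 and 339 CPM in Molm-14 EV and 262, 236 and 230 CPM in MV4-11 EV. Each step of that order was called (THP-1 minus Molm-14, 0.46 ± 0.09, adjusted p = 4.87e-05; MV4-11 minus Molm-14, -0.40 ± 0.09, adjusted p = 2.96e-04). The mitochondrial MDH2 did not separate MV4-11 from Molm-14 in either series (0.04 ± 0.06 and 0.01 ± 0.09) and was lower in THP-1 than in both (-0.40 ± 0.09 and -0.39 ± 0.09, adjusted p = 2.16e-04 and 3.00e-04).

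The 3 carriers were all called higher in MV4-11 than in Molm-14 in both series. SLC25A10, which exchanges dicarboxylates for phosphate, was at 30.9, 25.2 and 20.7 CPM against 17.9, 14.9 and 12.99 CPM in the overexpression series and at 21.5, 14.1 and 19.9 CPM against 8.41, 7.20 and 7.12 CPM in the knockout series (0.75 ± 0.16 and 1.30 ± 0.18, adjusted p = 7.36e-04 and 3.85e-07). It shares up to 1221 exon bases with another gene of the same strand. SLC25A1, which exports citrate, differed by 0.92 ± 0.12 and 0.55 ± 0.12 (adjusted p = 3.40e-05 and 2.32e-04). SLC25A11, the 2-oxoglutarate/malate carrier, was at 34.8, 30.5 and 30.8 CPM in THP-1 EV, below every MV4-11 EV (78.9 to 104.9 CPM) and Molm-14 EV (65.4 to 79.7 CPM) library, with differences of -1.52 ± 0.12 and -1.13 ± 0.12 (adjusted p = 1.44e-11 and 4.85e-09).

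**Figure D3:**
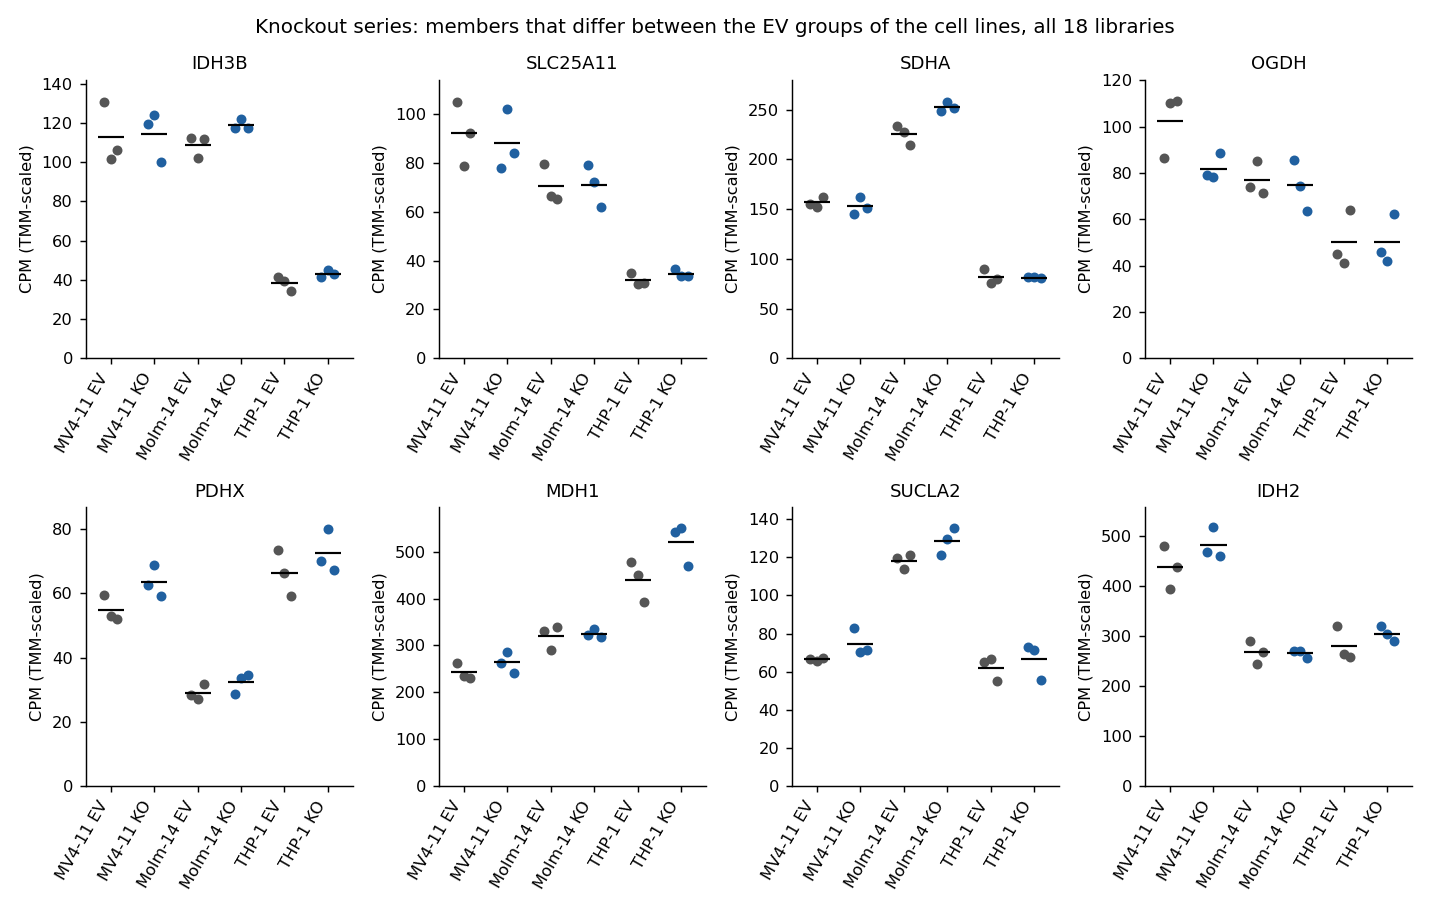
CPM of 8 members in the 18 libraries of the knockout series (points) with the group mean (line). THP-1 is lowest in IDH3B, SLC25A11, SDHA and OGDH and highest in MDH1, Molm-14 is lowest in PDHX and highest in SUCLA2, and MV4-11 is highest in IDH2, by the group means of both EV and KO.

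miR-1 OE changed no member past the threshold in either line. In MV4-11, 0 of 31 members were called, where 0.177% of all genes were called, and in Molm-14 0 of 31, where 0.0057% were called. No member had an unadjusted p under 0.05 in either line or in the difference of the effect between the lines, where again 0 were called (0.0456% of all genes). Of all genes, 5.9% had such a p in MV4-11, 4.38% in Molm-14 and 5.3% in the difference. DESeq2 called 0 members in each, where it called 0.412, 0.0285 and 0.0742% of the genes it tested. The median member moved by 0.03 in MV4-11 and 0.02 in Molm-14 on the log2 scale, against 0.01 and 0.00 for all genes. Leaving aside ME1 and ME3, which were near 0 in a line, the 29 other members had log2 fold changes between -0.06 and 0.14 in MV4-11 and between -0.10 and 0.12 in Molm-14. Their 95% intervals all lay within -0.5 and 0.5 on the log2 scale, and reached at most from -0.27 to 0.41 in MV4-11 and from -0.39 to 0.31 in Molm-14. A change inside a member's interval was not excluded by these libraries. OE and EV libraries did not overlap for 3 members higher and 1 lower in Molm-14, where 14.9% of all genes did not overlap. In MV4-11 this held for 0 members, against 9.17% of all genes.

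The widest log2 fold changes under OE belonged to members near 0 counts and are not well bounded. They were -0.593 for ME1 in MV4-11 and -1.94 for ME3 in Molm-14. ME1 in MV4-11 was at a mean of 0.168 CPM in OE (0 to 0.299) and 0.254 CPM in EV (0 to 0.521). The next widest shifts were small. PC was at 10.9, 8.93 and 9.44 CPM in MV4-11 OE against 8.69, 7.04 and 10.9 CPM in EV (0.14 ± 0.13, adjusted p = 1), and the groups overlapped. SLC25A1 was at 177.1, 183.7 and 160.4 CPM against 186.4, 126.8 and 167.2 CPM (0.12 ± 0.12, adjusted p = 1). In Molm-14, IDH3G was at 53.6, 51.8 and 54.0 CPM in OE against 46.3, 50.2 and 50.7 CPM in EV, which did not overlap but differed by only 0.12 ± 0.06 (adjusted p = 1). PDHB was at 51.3, 46.9 and 56.4 CPM against 47.1, 50.2 and 46.9 CPM (0.10 ± 0.07, adjusted p = 1), an overlap. ME1 in Molm-14 was at 15.5, 15.4 and 15.9 CPM in OE and 16.7, 17.3 and 18.2 CPM in EV (-0.16 ± 0.23, adjusted p = 1). ME3 in MV4-11 was at 4.12, 5.58 and 4.999 CPM in OE and 5.44, 6.13 and 4.83 CPM in EV (-0.16 ± 0.22, adjusted p = 1).

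The 5 members with a miR-1 seed match stayed close to their EV levels too. IDH3A, the only member with an 8mer, was at 66.1, 72.7 and 69.6 CPM in MV4-11 OE against 68.1, 69.5 and 65.1 CPM in EV, and at 57.6, 56.7 and 59.3 CPM in Molm-14 OE against 60.9, 57.3 and 53.7 CPM in EV. The values overlapped, and the log2 fold changes were 0.04 (95% interval -0.08 to 0.17) and 0.02 (-0.11 to 0.14). PDHA1, with 3 matches, changed by 0.09 (-0.06 to 0.24) in MV4-11 and 0.06 (-0.09 to 0.21) in Molm-14. DLD changed by 0.10 (0.00 to 0.21) and -0.02 (-0.13 to 0.09), IDH2 by 0.00 (-0.12 to 0.11) and 0.03 (-0.09 to 0.15), and SLC25A1 by 0.12 (-0.14 to 0.37) and 0.04 (-0.23 to 0.31). The MV4-11 libraries that stood apart in interferon genes lay in both groups, and with both left out 0 members were still called in MV4-11 (0.425% of all genes).

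**Figure D4:**
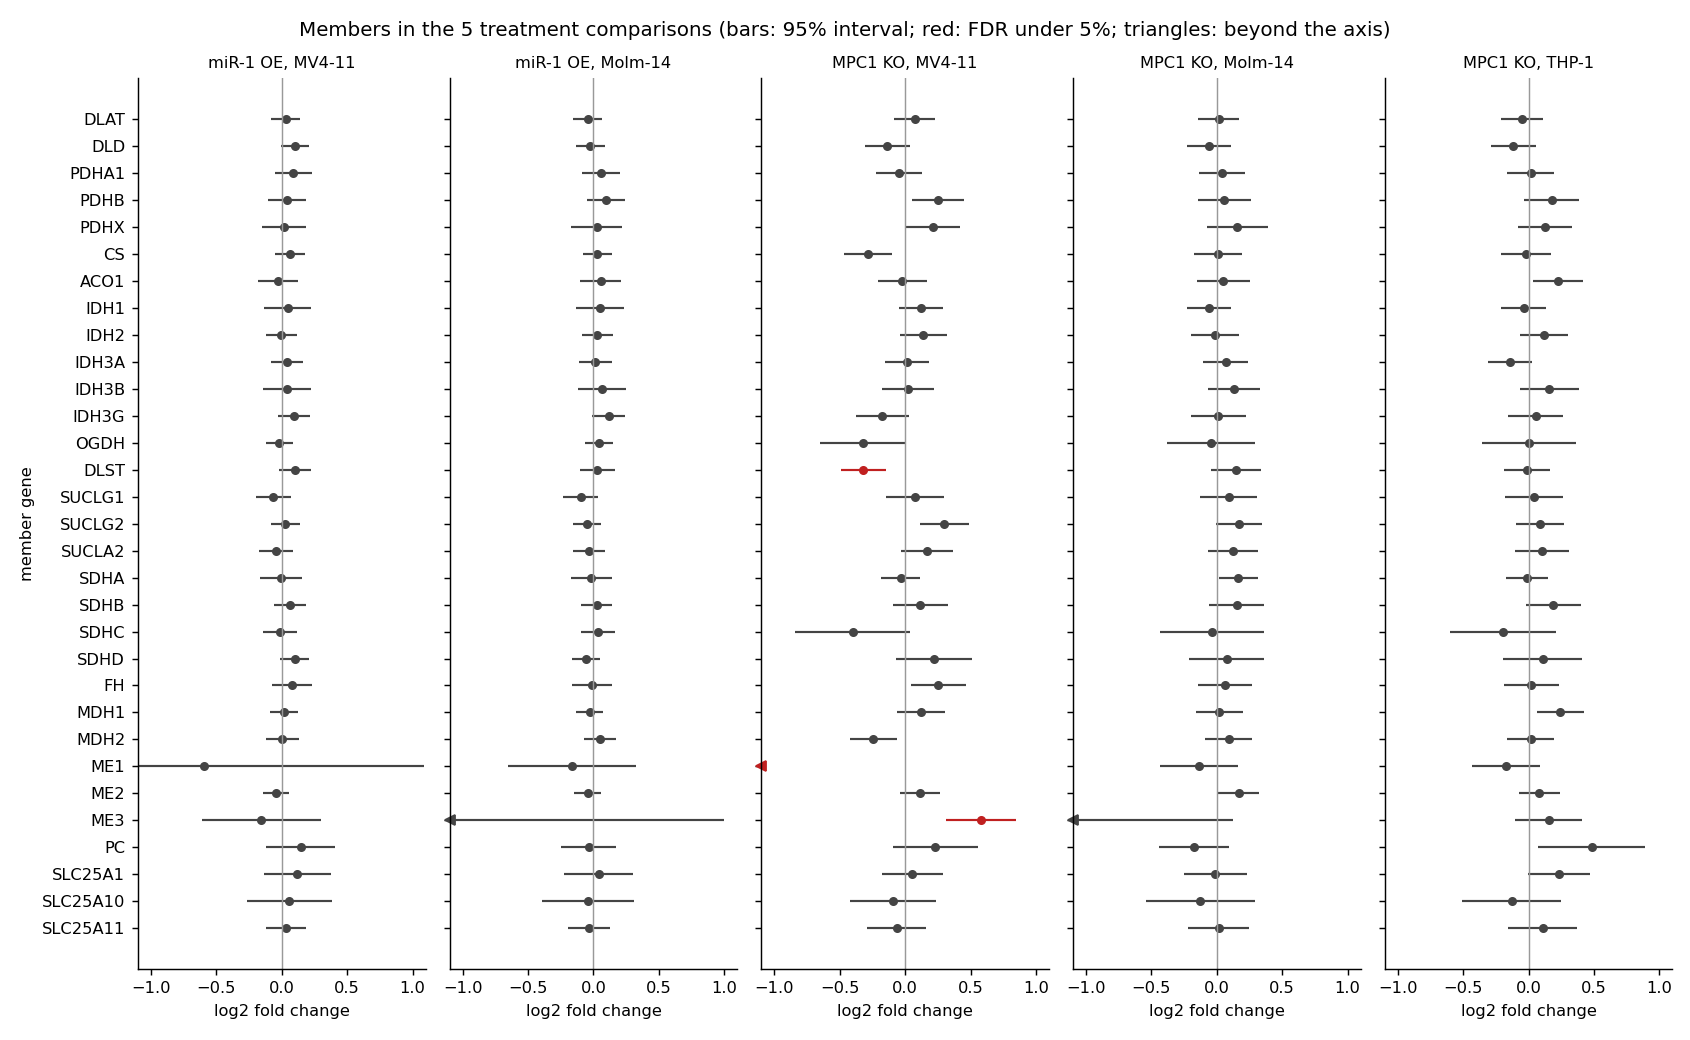
Log2 fold change of the 31 members in the 5 treatment comparisons, each against EV of the same line; bars are 95% intervals, red marks an FDR under 5% and triangles lie beyond the axis. Red appears only under MPC1 KO in MV4-11, for DLST, ME1 and ME3, and the intervals under miR-1 OE are narrow around 0 for all but ME1 and ME3.

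MPC1 itself separated the groups in all 3 lines, with no overlap between KO and EV libraries. Its mean fell from 56.1 to 24.8 CPM in MV4-11 (log2 fold change -1.18 ± 0.10, adjusted p = 1.33e-08), from 77.3 to 37.5 CPM in Molm-14 (-1.04 ± 0.09, adjusted p = 3.41e-08) and from 97.0 to 54.1 CPM in THP-1 (-0.84 ± 0.09, adjusted p = 6.32e-06). The transcript was thus reduced and not absent in the libraries labelled KO.

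In MV4-11 KO, 3 of 31 members (9.68%) were called (DLST and ME1 lower, ME3 higher), where 5.41% of all genes were called. ME1, near 0 in MV4-11, was tested only because the low-count filter took in the other lines, where it was higher. With only the compared groups filtered and fitted, 30 members were tested and 1 (ME3) was called, against 2.83% of all genes. In Molm-14 0 of 31 were called, where 2.4% of all genes were, and in THP-1 0 of 31, where 0.0897% were. DESeq2 also called 0 in Molm-14 and THP-1, where it called 2.43 and 0.233% of the genes it tested. In MV4-11 it called 5, with CS (lower) and SUCLG2 (higher) added, where it called 8.56% of the genes it tested. At an unadjusted p under 0.05, there were 9 members in MV4-11, 2 in Molm-14 (SDHA and ME2) and 3 in THP-1 (ACO1, MDH1 and PC), where 22.3, 10.7 and 8.01% of all genes had such a p. The median member moved by 0.06, 0.04 and 0.05 on the log2 scale in the order given, against 0.02, 0.00 and 0.00 for all genes. KO and EV libraries did not overlap for 5 members higher and 3 lower in MV4-11, where 24.1% of all genes did not overlap. In Molm-14 they did not for 5 higher and 1 lower (16.4% of all genes), and in THP-1 for 3 higher and 1 lower (13.6%).

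DLST fell in MV4-11 KO, from 80.3, 82.4 and 86.7 CPM in EV to 62.0, 68.7 and 68.6 CPM in KO. The groups did not overlap, and the fold change was -0.32 ± 0.08 (log2, SE; adjusted p = 0.0246), a drop of 20.0%. In Molm-14 DLST was at 32.6, 36.2 and 34.3 CPM in EV and 37.8, 40.6 and 35.8 CPM in KO, and in THP-1 at 71.3, 61.2 and 66.3 CPM and 64.3, 65.6 and 67.5 CPM. The difference of the effect between MV4-11 and Molm-14 was -0.47 ± 0.12 (adjusted p = 0.0556), and between MV4-11 and THP-1 -0.31 ± 0.12 (adjusted p = 0.416). The call in MV4-11 was lost without EV replicate 2 (adjusted p = 0.0686), EV replicate 3 (0.152), KO replicate 1 (0.165) or KO replicate 2 (0.0542).

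ME3 rose in MV4-11 KO, from 15.8, 14.5 and 13.4 CPM in EV to 23.2, 22.7 and 19.9 CPM in KO. Every KO library was above every EV library, and the fold change was 0.58 ± 0.13 (log2, SE; adjusted p = 0.0117), a rise of 49.6%. In THP-1 ME3 was at 28.1, 25.0 and 26.6 CPM in EV and 27.9, 31.9 and 28.8 CPM in KO, and the effect in MV4-11 exceeded that in THP-1 by 0.43 ± 0.18 (adjusted p = 0.467), which did not pass the threshold. Molm-14 gave no fold, because both groups were at or under the floor of 3 counts per library. The call in MV4-11 was lost without EV replicate 3 (adjusted p = 0.0911) or KO replicate 1 (0.0727). With ME3 higher, its share of the per-kilobase malic enzyme level was 26.6% ± 1.01 in MV4-11 KO and 20.6% ± 1.74 in EV.

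ME1 was called lower in MV4-11 KO on very few reads. The EV libraries held 4, 6 and 2 counts and the KO libraries none. A count of 0 allows up to 3 counts in a library, or 0.393 CPM on average here, so the EV mean of 0.527 CPM was at least 1.34-fold higher; EV replicate 3 was itself under the floor. The fitted fold change of -4.96 ± 1.04 (adjusted p = 0.00736) depends on how the model treats zeros and is no bound. In Molm-14, where ME1 was well above the floor, it was at 12.1, 17.1 and 16.4 CPM in EV and 13.7, 13.7 and 14.5 CPM in KO, and in THP-1 at 30.7, 35.4 and 33.2 CPM and 28.7, 30.1 and 29.3 CPM (-0.17 ± 0.13, adjusted p = 0.768).

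The difference of the KO effect between lines was called for 1 of 31 members between MV4-11 and Molm-14 (ME1, where 1.48% of all genes were called), for 0 between MV4-11 and THP-1 (0.193% of all genes) and for 0 between Molm-14 and THP-1 (0.766% of all genes). At an unadjusted p under 0.05 these comparisons gave 4, 4 and 1 members, where 14.2, 9.05 and 7.8% of all genes had such a p. DESeq2 called 2 members in the first of these (DLST and ME1), where it called 3.17% of the genes it tested, and 0 in the others.

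Of the other members in MV4-11 KO, none passed the threshold in edgeR, and those with the smallest p-values lay in both directions. SUCLG2 was at 51.3, 58.2 and 51.8 CPM in EV and 70.1, 66.3 and 62.1 CPM in KO, with no overlap (0.30 ± 0.09, adjusted p = 0.0507). CS was at 112.2, 140.6 and 126.1 CPM in EV and 97.7, 100.9 and 112.6 CPM in KO (-0.28 ± 0.09, adjusted p = 0.0615). MDH2 (-0.24 ± 0.09) had adjusted p = 0.0974, and PDHB (0.25 ± 0.10), PDHX (0.21 ± 0.10) and FH (0.25 ± 0.10) had adjusted p = 0.128, 0.217 and 0.134. SDHC was at 20.8, 33.9 and 31.9 CPM in EV and 18.8, 18.2 and 28.0 CPM in KO, an overlap (-0.40 ± 0.21, adjusted p = 0.264). The share of counts from the mitochondrial genome also differed between these groups, at 0.211, 0.452 and 0.392% in MV4-11 EV and 0.161, 0.140 and 0.202% in KO, and its part in these values was not tested.

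**Figure D5:**
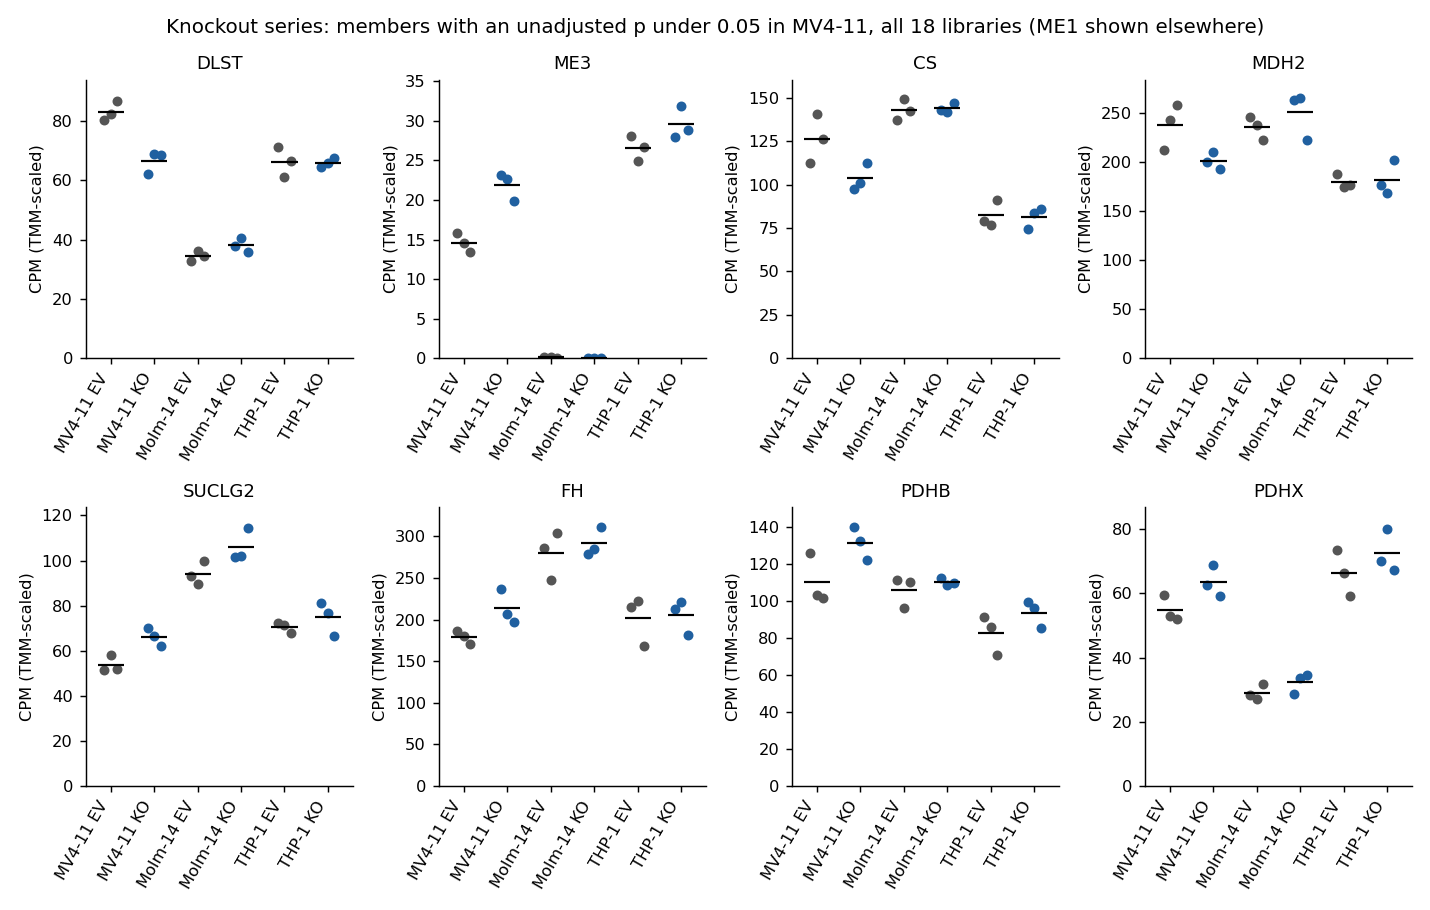
CPM of the 8 members other than ME1 with an unadjusted p under 0.05 in MV4-11 KO, in the 18 libraries of the knockout series (points) with the group mean (line). In MV4-11 the KO points lie below the EV points for DLST and MDH2 and above them for ME3, SUCLG2 and FH, and in THP-1 the EV and KO values of DLST and FH overlap. Of all genes tested, 24.1% had no overlap between KO and EV in MV4-11.

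In Molm-14 and THP-1 the widest shifts under KO stayed short of the threshold. In Molm-14, ME2 was at 199.8, 177.7 and 199.0 CPM in EV and 211.2, 215.4 and 219.7 CPM in KO (0.17 ± 0.08, adjusted p = 0.417), and SUCLG2 was at 93.2, 89.6 and 99.7 CPM and 101.6, 101.8 and 114.5 CPM (0.17 ± 0.09, adjusted p = 0.505). PC was lower in each KO library (26.6, 28.6 and 27.7 CPM) than in each EV library (31.1, 31.5 and 30.99 CPM), by -0.17 ± 0.13 (adjusted p = 0.738). In THP-1, PC was higher in each KO library (7.10, 6.39 and 7.88 CPM) than in each EV library (5.59, 3.74 and 5.98 CPM), by 0.48 ± 0.20 (adjusted p = 0.545), and MDH1 was at 542, 550 and 470 CPM in KO against 478, 449 and 392 CPM in EV (0.24 ± 0.09, adjusted p = 0.485). SDHC in THP-1 was at 38.1, 38.2 and 47.8 CPM in KO and 43.5, 47.2 and 51.3 CPM in EV (-0.19 ± 0.19, adjusted p = 0.822). Of the 29 members other than ME1 and ME3, 28 in Molm-14 and 26 in THP-1 had a 95% interval within -0.5 and 0.5 on the log2 scale, and 25 in MV4-11.

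Genes beside the members in the pathway are read against the share of all genes called. Under KO that share was 5.41% in MV4-11, 2.4% in Molm-14 and 0.0897% in THP-1. Under OE it was 0.177% in MV4-11 and 0.0057% in Molm-14. Of 10 genes of pyruvate entry and PDH control, MPC1 was the only gene called in Molm-14 KO and THP-1 KO. In MV4-11 KO, MPC2, its partner in the carrier, was called higher as well, from a mean of 68.7 to 85.5 CPM (0.31 ± 0.09, adjusted p = 0.0475). Of 17 other TCA and PDH genes, of which 14 were tested in the knockout series and 15 in the overexpression series, only GOT2, the mitochondrial aspartate aminotransferase, was called in a treatment comparison: its mean fell from 54.5 to 43.1 CPM in MV4-11 KO (-0.34 ± 0.09, adjusted p = 0.0313). The calls of MPC2 and GOT2 were not tried with each library left out or under the other alternatives. None of 16 genes of lipoylation, cofactor supply and complex II assembly was called under OE or KO in any line, and the median of this list in MV4-11 KO was 0.04 against 0.02 for all genes. Of 20 interferon-stimulated genes, 0 were called under OE in either line, with a median difference of 1.77 (log2) in MV4-11, whose OE replicate 1 had the highest level, and OAS3 and HERC5 were called lower in Molm-14 KO.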

How the data were processed

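The deposited values were raw counts per Ensembl gene, made by the authors by trimming (cutadapt 1.16), alignment to GRCh38 (STAR 2.7.6a) and read assignment (featureCounts 1.6.3), with DESeq2 1.30.1 also named in the submitters' processing notes. Libraries came from a stranded total RNA kit with ribosomal RNA depletion. The series were counted on different annotations and were analysed apart.

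Members and lists were chosen with earlier results of these data known. Symbols, exon lengths and 3′ UTRs came from GENCODE release 44. Genes were filtered with filterByExpr (17542 and 14490 tested, all 31 members in both), scaled by TMM and fitted in edgeR 4.0.16 (R 4.3.3) with the robust quasi-likelihood model, in which each group had its own mean and the whole series entered 1 fit. A call was an FDR under 5%. Standard errors and 95% intervals used the model's residual spread. Counting intervals were exact binomial, and floors of 3 counts cover counting error only, since PCR copies are not independent molecules. Total counts per library, given in the report, limit precision most for ME1 and ME3. The test was checked on simulated counts. Replicates of a group all differed by more than sampling noise (chi-square per degree of freedom from 1.50 to 15.8).

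Values per library are given for members called under a treatment, for the 2 largest rises and falls in each treatment comparison, and for up to 8 members with the largest differences between lines. Alternatives were other size factors, DESeq2 1.42.0, no low-count filter, a replicate block, only the compared groups, each library left out, and, chosen after seeing the data, both MV4-11 libraries with high interferon genes left out.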

Additional observations from a re-analysis of the deposited data

Results flagged for a closer look

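The effect of MPC1 KO on ME1 differed between MV4-11 and Molm-14 by -4.82 ± 1.06 on the log2 scale (edgeR, adjusted p = 0.0167), by a test of the difference itself, with 17 alternatives giving adjusted p from 0.0122 to 0.0754. ME1 was lower in all 3 MV4-11 KO libraries (0 counts each) than in the 3 EV libraries (4, 6 and 2 counts), and Molm-14 KO lay within the EV range of 12.1 to 17.1 CPM. The call was lost without MV4-11 EV replicate 2 (0.0754), KO replicate 1 (0.0692), KO replicate 2 (0.0586) or KO replicate 3 (0.0543). It rests on 12 counts in all on the MV4-11 side. ME1 entered the test through its levels in the other lines, and was filtered out when only the MV4-11 groups were kept.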

How the results depend on the processing

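Of the members' counts per comparison, those for miR-1 OE (0 in both lines), MPC1 KO in Molm-14 and THP-1 (0 each) and the 4 line comparisons (21 to 28 called) stayed within 1.5 times their value under each alternative tried. In the line comparisons the share of all genes called ran from 26.9% (no filter, knockout series, MV4-11 against Molm-14) to 70% (replicate block, THP-1 against Molm-14). The 3 calls under MPC1 KO in MV4-11 became 5 with no low-count filter (OGDH and SDHC added), 5 with DESeq2 (CS and SUCLG2 added) and 1 with only the compared groups in the fit (ME1 was then filtered out and DLST had adjusted p = 0.0549), and ran from 1 to 6 when 1 library was left out. Of all genes tested, 2.96, 8.56 and 2.83% were called under these settings, and 0.896 to 9.47% when 1 library was left out. The single call for the difference between MV4-11 and Molm-14 became 2 with RLE size factors, 2 with DESeq2 and 2 with only the compared groups, each time with DLST added, and ran from 0 to 2 when 1 library was left out. Of all genes tested, 1.57, 3.17 and 1.54% were called under these settings, and 0.707 to 2.5% when 1 library was left out. The difference between MV4-11 and THP-1 went from 0 to 1 (ME1) with no filter, where 0.23% of all genes were called. The cause of these moves was not tested. Counting only 8mers left 1 of 31 members with a miR-1 match (3.23%, against 5.32% of tested genes). No direction of a called member reversed.

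Same-numbered EV and KO or OE libraries had correlations of their deviations from -0.377 to 0.128 in MV4-11 and Molm-14. In THP-1 all 3 were positive (0.179, 0.0987 and 0.33) and each library correlated best with its own number, a hint from the data only, and the numbers were not taken to pair the samples. With the replicate block, 9 members were called under MPC1 KO in MV4-11 (PDHB, CS, OGDH, SUCLG2, FH and MDH2 added), where 10.2% of all genes were called. For the difference between MV4-11 and Molm-14 it gave 2 members, where 2.68% of all genes were called. The other counts of calls stayed within 1.5 times. Changes in ME1 in MV4-11 and ME3 in Molm-14, both near 0 counts, were the least well bounded.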

Other observations

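In the knockout series, CS, OGDH and SDHC were highest in the library with the largest share of mitochondrial-genome counts in 5 of the 6 groups, a pattern looked for after the values had been seen. SDHC was at 40.4, 58.7 and 49.6 CPM in Molm-14 EV, where that share was 0.177, 0.306 and 0.209%, and OGDH was at 45.8, 42.0 and 62.3 CPM in THP-1 KO, where it was 0.198, 0.204 and 0.298%. These 3 of 31 members compare with 9.40% of all 14490 tested genes, so the members were not set apart in this. No other member reached more than 3 groups.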
